A study of Mus musculus with 15 samples.

Results

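The genes described here are the protein-coding members of cytochrome P450 families 1 to 4 of the mouse. They were chosen by symbol, as Cyp followed by a family number from 1 to 4, a subfamily letter and a member number, together with a protein-coding biotype. The rule found 81 genes among the 56748 genes of the table, of which 21970 are protein-coding. A further 33 symbols of the same form belong to genes that are not protein-coding and were left out. Family Cyp1 holds 3 of the members, Cyp2 holds 49, Cyp3 holds 9 and Cyp4 holds 20, in 21 subfamilies.

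Cytochromes P450 of these families are heme enzymes of the endoplasmic reticulum that insert an oxygen atom into small lipophilic molecules, with electrons passed on by the reductase Por and by cytochrome b5. Families Cyp1, Cyp2 and Cyp3 hold most enzymes of drug, toxicant and steroid oxidation, and family Cyp4 hydroxylates fatty acids and eicosanoids at the end of their chain. In the kidney they are found mainly in the proximal tubule, and several members are driven by androgens in male mice. In the lung the club cells of the airway are the best known site, where Cyp2f2 activates inhaled toxicants such as naphthalene. Nuclear receptors and the aryl hydrocarbon receptor switch many of these genes on.

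RNA was sequenced from kidneys and lungs of wild-type (WT) male C57Bl/6 mice, in 15 libraries that fall into 5 groups of 3. Kidneys of the WTK group came from mice given vehicle, and the labels do not say whether these mice also received an antibody. Folic acid and antibody injection may therefore differ together between WTK and the other kidney groups. Kidneys of the IgGK and LepK groups came from mice given folic acid at 200 mg/kg, which injures the tubules and leads to fibrosis, and then control IgG (IgGK) or a leptin-neutralizing antibody (LepK). Lungs of the IgGL and LepL groups came from mice given bleomycin at 1.5 units/kg, which leads to lung fibrosis, and then control IgG (IgGL) or the same antibody (LepL). Both antibodies were given at 10 mg/kg every other day, kidneys were taken on day 28 and lungs on day 14. By the study's methods, injections in the kidney experiment stopped before day 28, and in the lung experiment they covered the 14 days. The mice were 10 to 12 weeks old in the kidney experiment and 12 weeks old in the lung experiment. No lung group without bleomycin and no group given the leptin antibody without injury was analysed here. The lung libraries are from 3 mice per group and the kidney libraries are 3 per group by the study's legends, but no label ties a library to an animal, and p-values measure the spread between these libraries. All 15 libraries carry the same batch label.

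The libraries held 25913969 to 38924788 counts. Members took 1.13 to 1.21% of the counts in WTK, 0.473 to 0.560% in IgGK and 0.685 to 0.869% in LepK. In lung they took 0.0665 to 0.113% (IgGL) and 0.130 to 0.224% (LepL). These ranges do not overlap, neither among the 3 kidney groups nor between the lung groups. The labelled organs fit their markers, since the summed CPM (counts scaled to library depth, with TMM factors) of 4 distal nephron markers was 2505 to 3989 in kidney and 0.732 to 2.09 in lung, and that of 5 alveolar type 2 markers 6373 to 23377 in lung and 208 to 544 in kidney. Of the alveolar type 2 markers, Abca3 made almost all of the kidney sum, at 207 to 544 CPM in kidney and 135 to 294 CPM in lung. In kidney, markers of other organs stood out in some libraries. Summed CPM of 5 adrenal cortex markers was 505 in IgGK replicate 1 and 641 in IgGK replicate 2, against 15.03 in IgGK replicate 3 and 5.87 to 8.09 in the other kidney libraries. Summed CPM of 5 hepatocyte markers was 1119 in LepK replicate 2, against 215 to 375 in the other kidney libraries, and albumin (Alb) alone reached 697 there. The calls of members are therefore also described without these libraries. In whole organs, fewer cells of a type and less RNA per cell cannot be told apart.

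Levels of different genes are compared only as the deposited FPKM, which is scaled per kilobase of gene length. The median gene's FPKM was 0.966 to 0.981 of its unscaled CPM per kilobase in WTK, 0.686 to 0.713 in IgGK, 0.782 to 0.849 in LepK and 0.687 to 0.701 in lung, and FPKM is therefore used for the order and shares of members within a group and CPM for changes between groups. In kidney a group mean over 1 FPKM was reached by 32 (WTK), 30 (IgGK) and 33 (LepK) members, and in lung by 15 (IgGL) and 17 (LepL). In contrast, 8 members had no count in any kidney library and 15 had none in any lung library, and for Cyp3a16 and Cyp3a41b this held in all 15. In WTK the member with the highest level was Cyp4b1, a fatty acid hydroxylase that also activates furan toxicants, at 2054 ± 129 FPKM (SD, n = 3). It was followed by Cyp2e1, which oxidizes ethanol and other small molecules, at 1267 ± 52.3 FPKM, and by Cyp2j5, an arachidonic acid epoxygenase of the proximal tubule, at 519 ± 17.9 FPKM. The 3 values of each of these genes did not overlap with those of the next in the order. Together with Cyp2a4, a testosterone hydroxylase, and Cyp4a12a, which turns arachidonic acid into a vasoconstrictor, they led the FPKM sum of the 81 members. Cyp4b1 gave 41.3% of that sum in WTK, Cyp2e1 25.5%, Cyp2j5 10.5%, Cyp2a4 6.65% and Cyp4a12a 2.99%, as means of 3 libraries.

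The order of the leading members differed between groups. In IgGK, Cyp2e1 gave 24.6% of the summed FPKM and Cyp4b1 23.0%, and their ranges over libraries overlapped. In LepK, Cyp4b1 gave 27.6%, Cyp2e1 23.5% and Cyp2a4 11.99%. In the lung groups Cyp2f2 led, with 31.5% in IgGL (22.9 to 42.5%) and 55.3% in LepL (49.9 to 59.8%), followed by Cyp4b1 (20.9% in IgGL, 13.9 to 16.0% in LepL) and Cyp2b10 (17.3 and 12.5%). Cyp2b10, the classic target of the nuclear receptor Nr1i3, was thus a leading lung member but a minor kidney one, at 1.60 ± 0.751 FPKM in WTK. Cyp4a12a showed the opposite, with 149 ± 34.3 FPKM in WTK and at most 0.233 TMM-normalized CPM in any lung library. Organ, agent, day and length of antibody dosing differ together between the kidney and lung libraries, so these differences between organs were not tested.

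**Figure D1:**
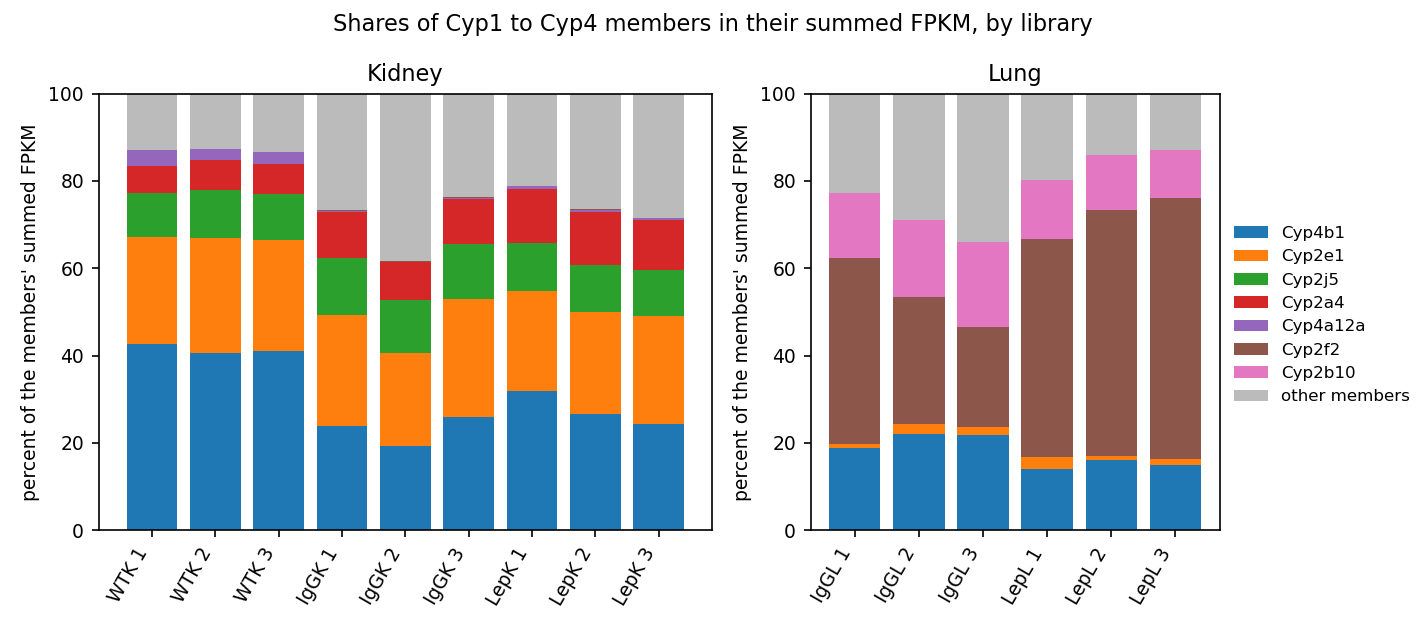
Percent of the summed deposited FPKM of the 81 members (vertical axis) that each gene gives in each library, stacked to the whole, for kidney (left) and lung (right). Cyp4b1 gives 40.5 to 42.6% in WTK and 19.3 to 26.0% in IgGK, and Cyp2f2 gives 22.9 to 42.5% in IgGL and 49.9 to 59.8% in LepL.

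The 250 bases before the annotated start of 6 members are shown, because these genes carry the results below: 3 leading kidney members that fell in IgGK, the member Cyp1b1 that rose there, and both Cyp2 genes that lead in lung. They are RefSeq sequences of build GRCm38.p6, written 5′ to 3′ on the strand of the gene, and the library values are from a newer build. Capitals mark matches on either strand to 3 motifs. The TATA box was searched as TATAAA. The half-site of nuclear receptors was searched as AGGTCA. The core of the response element of the aryl hydrocarbon receptor was searched as GCGTG. No matches overlap in these windows.
Cyp4b1, chr4:115647722-115647971, minus strand: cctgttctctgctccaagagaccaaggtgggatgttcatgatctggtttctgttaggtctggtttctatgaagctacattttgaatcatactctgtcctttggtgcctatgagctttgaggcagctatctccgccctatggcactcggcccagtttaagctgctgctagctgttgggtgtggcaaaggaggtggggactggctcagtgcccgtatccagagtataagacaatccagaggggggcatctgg
Cyp2e1, chr7:140763569-140763818, plus strand: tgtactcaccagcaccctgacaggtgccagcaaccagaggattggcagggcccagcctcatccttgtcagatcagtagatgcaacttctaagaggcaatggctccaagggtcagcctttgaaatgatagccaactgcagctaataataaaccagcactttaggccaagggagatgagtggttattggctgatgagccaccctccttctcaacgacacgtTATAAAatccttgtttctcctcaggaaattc
Cyp2j5, chr4:96664120-96664369, minus strand: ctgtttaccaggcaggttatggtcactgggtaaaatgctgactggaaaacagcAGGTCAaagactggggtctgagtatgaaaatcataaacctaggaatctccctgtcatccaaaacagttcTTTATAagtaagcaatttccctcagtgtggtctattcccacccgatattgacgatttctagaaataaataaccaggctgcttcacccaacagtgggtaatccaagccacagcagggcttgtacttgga
Cyp1b1, chr17:79715062-79715311, minus strand: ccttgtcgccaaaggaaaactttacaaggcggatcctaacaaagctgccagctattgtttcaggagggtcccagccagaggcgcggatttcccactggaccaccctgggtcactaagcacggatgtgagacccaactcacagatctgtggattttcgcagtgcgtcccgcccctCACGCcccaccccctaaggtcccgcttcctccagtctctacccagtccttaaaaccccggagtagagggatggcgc
Cyp2f2, chr7:27119705-27119954, plus strand: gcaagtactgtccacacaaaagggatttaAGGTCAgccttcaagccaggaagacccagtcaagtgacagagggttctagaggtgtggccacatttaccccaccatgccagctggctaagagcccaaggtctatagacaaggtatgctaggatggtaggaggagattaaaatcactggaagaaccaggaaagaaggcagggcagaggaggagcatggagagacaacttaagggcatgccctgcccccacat
Cyp2b10, chr7:25897408-25897657, plus strand: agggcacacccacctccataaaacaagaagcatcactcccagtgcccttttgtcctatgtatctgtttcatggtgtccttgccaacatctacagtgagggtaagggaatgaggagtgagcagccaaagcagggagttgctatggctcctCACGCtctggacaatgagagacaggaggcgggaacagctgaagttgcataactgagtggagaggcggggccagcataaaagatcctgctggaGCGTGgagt

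Cyp2e1 holds TATAAA 31 to 26 bases before the start. Cyp2j5 holds AGGTCA 197 to 192 bases before it and TATAAA on the other strand, and Cyp2f2 holds AGGTCA 221 to 216 bases before it. GCGTG was found on the other strand in Cyp1b1, 76 to 72 bases before the start, and on both strands in Cyp2b10, at 101 to 97 and 9 to 5 bases. The window of Cyp4b1 holds none of the 3 letter strings. A RefSeq window was matched by symbol for 65 of the 81 members, which leaves out Cyp4a12a, Cyp2d12, Cyp4a10 and Cyp4a14. TATAAA was in 40.0% of these 65 windows, against 13.0% of all 27025 windows. AGGTCA was in 24.6% against 13.8% and GCGTG in 18.5% against 28.2%. Another string, the HNF1 half-site GTTAAT, was also searched. It had no match in the windows printed above and was in 13.8% of the 65 windows, against 6.52% of all windows. These shares describe letters in windows of one length and were not set against any change in expression.

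The first comparison sets kidneys of mice given folic acid and IgG against those of mice given vehicle, as IgGK against WTK. The leading kidney members fell, among them Cyp4b1 to 0.184 of its WTK level, Cyp2e1 to 0.317, Cyp2j5 to 0.395 and Cyp4a12a to 0.0241. In contrast Cyp4a14, Cyp4f18, Cyp1b1, Cyp4v3, Cyp4f16 and Cyp4a10 rose. Of 81 members, 49 passed the filter on low counts and were tested, and members were called by edgeR's quasi-likelihood test where the p adjusted over all genes (Benjamini-Hochberg) was under 0.05 and the log2 fold change exceeded 0.5 in either direction. Of these 49, 6 (12.2%) were higher and 19 (38.8%) lower, where 21.7% of all 19593 genes tested were called higher and 15.6% lower. The median log2 fold change was -0.28 over the members tested and 0.04 over all genes tested. The filter also took in the LepK libraries. In a fit of IgGK and WTK alone, 41 members were tested, and these medians were -0.66 and 0.04. IgGK and WTK libraries did not overlap for 32 of the 49 members, and for 62.6% of all genes tested. The 32 members not tested had at most 8.11 CPM in a kidney library.

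Cyp4a12a had 553, 368 and 388 CPM in WTK replicates 1 to 3 and 11.2, 5.77 and 14.6 CPM in IgGK. All WTK libraries were above all IgGK libraries, and the log2 fold change was -5.38 (SE 0.41, adjusted p = 4.40e-07). This gene is strongly driven by androgens, and 35.8% of its 100-base stretches are shared with Cyp4a12b, so the split of reads between them is uncertain. Cyp4a12b itself had 8.97, 9.71 and 11.5 CPM in WTK and 6.96, 10.3 and 4.39 CPM in IgGK, which overlap. Cyp2d12, another Cyp2d gene, fell from 145, 117 and 151 CPM to 4.19, 7.43 and 7.43 CPM, a log2 fold change of -4.43 (SE 0.29). Its groups did not overlap either, and only 1.73% of its stretches are shared with other genes.

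Cyp4b1 had 6018, 5487 and 5309.9 CPM in WTK and 1153, 744 and 1191 CPM in IgGK (log2 fold change -2.44, SE 0.21, adjusted p = 8.74e-07). The deposited coordinates, on GRCm39 by the submitters' notes, put it on chromosome 4 from 115481922 to 115504920 on the minus strand. Cyp2e1, on chromosome 7 from 140343652 to 140354900, had 3331, 3435 and 3157 CPM in WTK and 1178, 791 and 1181 CPM in IgGK (log2 fold change -1.66, SE 0.15). Within IgGK, replicate 2 had the lowest value of both genes, and the groups did not overlap. Cyp2j5 had 1457, 1527 and 1428 CPM in WTK and 658, 484 and 601 CPM in IgGK, again with replicate 2 lowest (log2 fold change -1.34, SE 0.13). It lies on chromosome 4 from 96517010 to 96552391, among 8 members of subfamily Cyp2j, and the other called members of that subfamily fell as well. These were Cyp2j8 (-2.13), Cyp2j13 (-1.56), Cyp2j9 (-1.26), Cyp2j11 (-1.04) and Cyp2j7 (-0.69, adjusted p = 0.0375). Cyp2j7 falls outside the rule for named genes, as do Cyp2c69, Cyp4a31, Cyp2c29 and Cyp2c50 below, and these were chosen after their values were seen. Its call was lost without WTK replicate 2 or 3, or without IgGK replicate 1 or 2.

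The testosterone hydroxylase Cyp2a4 had 676, 719 and 685 CPM in WTK and 391, 255 and 360.2 CPM in IgGK (log2 fold change -1.05, SE 0.15). Cyp2a5, the coumarin hydroxylase, fell by 1.02 on the log2 scale, and 12.1% of its stretches are shared, mostly with Cyp2a4. Cyp2d9, which also hydroxylates testosterone, fell by 1.60 and Cyp2d26 by 1.26. Cyp2c23, an epoxygenase of the kidney, fell by 0.80, Cyp4a32 by 2.03 (18.2% of stretches shared) and Cyp2f2 by 1.11 (adjusted p = 0.0162). Cyp2c69 (35.4% of stretches shared) was called lower too, at 0.540, 0.553 and 0.829 CPM in WTK and 0, 0 and 0.231 CPM in IgGK, and no fold is given because 2 IgGK libraries were at 0. The call of Cyp2f2 was lost without WTK replicate 1 or IgGK replicate 2, and that of Cyp2c69 without WTK replicate 3, IgGK replicate 1 or IgGK replicate 2. Cyp2b10 had 6.31, 2.88 and 3.07 CPM in WTK and 0.264, 0.0572 and 0.231 CPM in IgGK, which is near the 0.0856 to 0.125 CPM that 3 counts make in a kidney library (log2 fold change -4.46, SE 0.67).

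Among the members that rose, Cyp4a14 changed most. This hydroxylase of fatty acids, a target of the nuclear receptor Ppara, had 2.16, 4.26 and 3.82 CPM in WTK and 162, 364 and 70.8 CPM in IgGK (log2 fold change 5.86, SE 0.65, adjusted p = 8.32e-06). The IgGK libraries differed among themselves, and the lowest of them was still above every WTK library. Cyp4a10, a second such target, had 87.7, 138 and 108 CPM in WTK and 194, 276 and 145 CPM in IgGK (log2 fold change 0.88, SE 0.20, adjusted p = 0.00248). Its rise was 0.38 (adjusted p = 0.143) without IgGK replicates 1 and 2. Cyp4a14 and Cyp4a12a lie near each other on chromosome 4, from 115343397 to 115353339 and from 115156243 to 115190012, and changed in opposite directions. Cyp4a31, of the same subfamily, had group means of 230 and 246 CPM in IgGK and WTK, with overlapping libraries.

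Cyp1b1, a target of the aryl hydrocarbon receptor that hydroxylates estradiol, had 17.8, 18.2 and 20.4 CPM in WTK and 57.8, 72.6 and 58.5 CPM in IgGK (log2 fold change 1.74, SE 0.11, adjusted p = 9.96e-08). Cyp4f18, which inactivates leukotriene B in myeloid cells, had 1.29, 0.908 and 1.15 CPM in WTK and 6.79, 10.7 and 7.37 CPM in IgGK (log2 fold change 2.89, SE 0.28). Cyp4v3, the mouse counterpart of the fatty acid hydroxylase mutated in a crystalline retinal dystrophy, rose by 1.71 (SE 0.11) from 5.69 to 6.67 CPM in WTK to 20.0 to 21.9 CPM in IgGK. Each of these genes was higher in all 3 IgGK libraries than in any WTK library. Cyp4f16 rose by 1.68 (SE 0.15), also without overlap. Macrophage markers rose with them (5 of 5 listed genes called higher, summed CPM 120 to 132 in WTK and 448 to 549 in IgGK), and so did 4 of the 5 neutrophil markers (2.01 to 2.24 against 16.9 to 25.5 CPM). The part of these cells in the values of Cyp4f18 and Cyp1b1 was not tested.

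Summing the counts of each subfamily, which keeps reads shared within a subfamily in one feature, gave 18 subfamilies with enough counts. Cyp2a (-1.04), Cyp2b (-1.74), Cyp2d (-1.62), Cyp2e (-1.66), Cyp2f (-1.11), Cyp2j (-1.31) and Cyp4b (-2.45) were lower in IgGK, and Cyp1b (1.74) and Cyp4v (1.71) were higher. There, 37.3% of all features were called. Cyp4a as a whole had group means of 654 CPM in IgGK and 817 CPM in WTK and was not called (log2 fold change -0.32, SE 0.21), with members that moved in both directions. Without IgGK replicates 1 and 2, the libraries with adrenal transcripts, the log2 fold change of Cyp4a was -0.95. Markers of the proximal tubule moved in the same direction as the leading members. All 10 listed genes fell, with a median log2 fold change of -1.60 and a summed CPM of 18234 to 19254 in WTK and 4482 to 5879 in IgGK. The 4 genes listed as androgen-responsive in kidney fell too, from a summed 35482 to 37217 CPM to 8461 to 14548 CPM, and 5 injured tubule markers rose from 11.0 to 17.3 CPM to 541 to 586 CPM. Of 4 adipocyte markers, 3 were called higher and 1 lower (summed CPM 79.6 to 153 in WTK and 285 to 474 in IgGK). Their part in the changes of the members was not tested.

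Of 8 genes for partners of P450 enzymes, 5 fell and 1 rose. The reductase Por fell by 1.30 (SE 0.10), cytochrome b5 Cyb5a by 1.34 and Cyb5b by 0.62, the heme synthesis enzyme Alas1 by 0.88 and the soluble epoxide hydrolase Ephx2, which opens the epoxides that Cyp2j and Cyp2c enzymes make, by 1.29. The microsomal epoxide hydrolase Ephx1 rose by 0.88 (SE 0.13). Of 12 regulators, 4 fell and 3 rose. Ppara (-1.54), Hnf4a (-1.34) and Rxra (-0.86) were among those lower, and the aryl hydrocarbon receptor gene Ahr (1.13), Cebpa (0.94) and Nr1i2 (0.91) were higher. Without IgGK replicates 1 and 2, Cyp2f2, Cyp4a10, Cyp2j7 and Cyp2c69 lost their calls and Cyp4a12b (-1.19) was called lower. With scaling by library size alone, the median log2 fold change of all genes moved to 0.48, and 10 members were called higher and 16 lower. In that fit 8981 of all 19593 genes tested were called. On that scale the median of the members tested was 0.16, above 0 but below that of all genes.

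**Figure D2:**
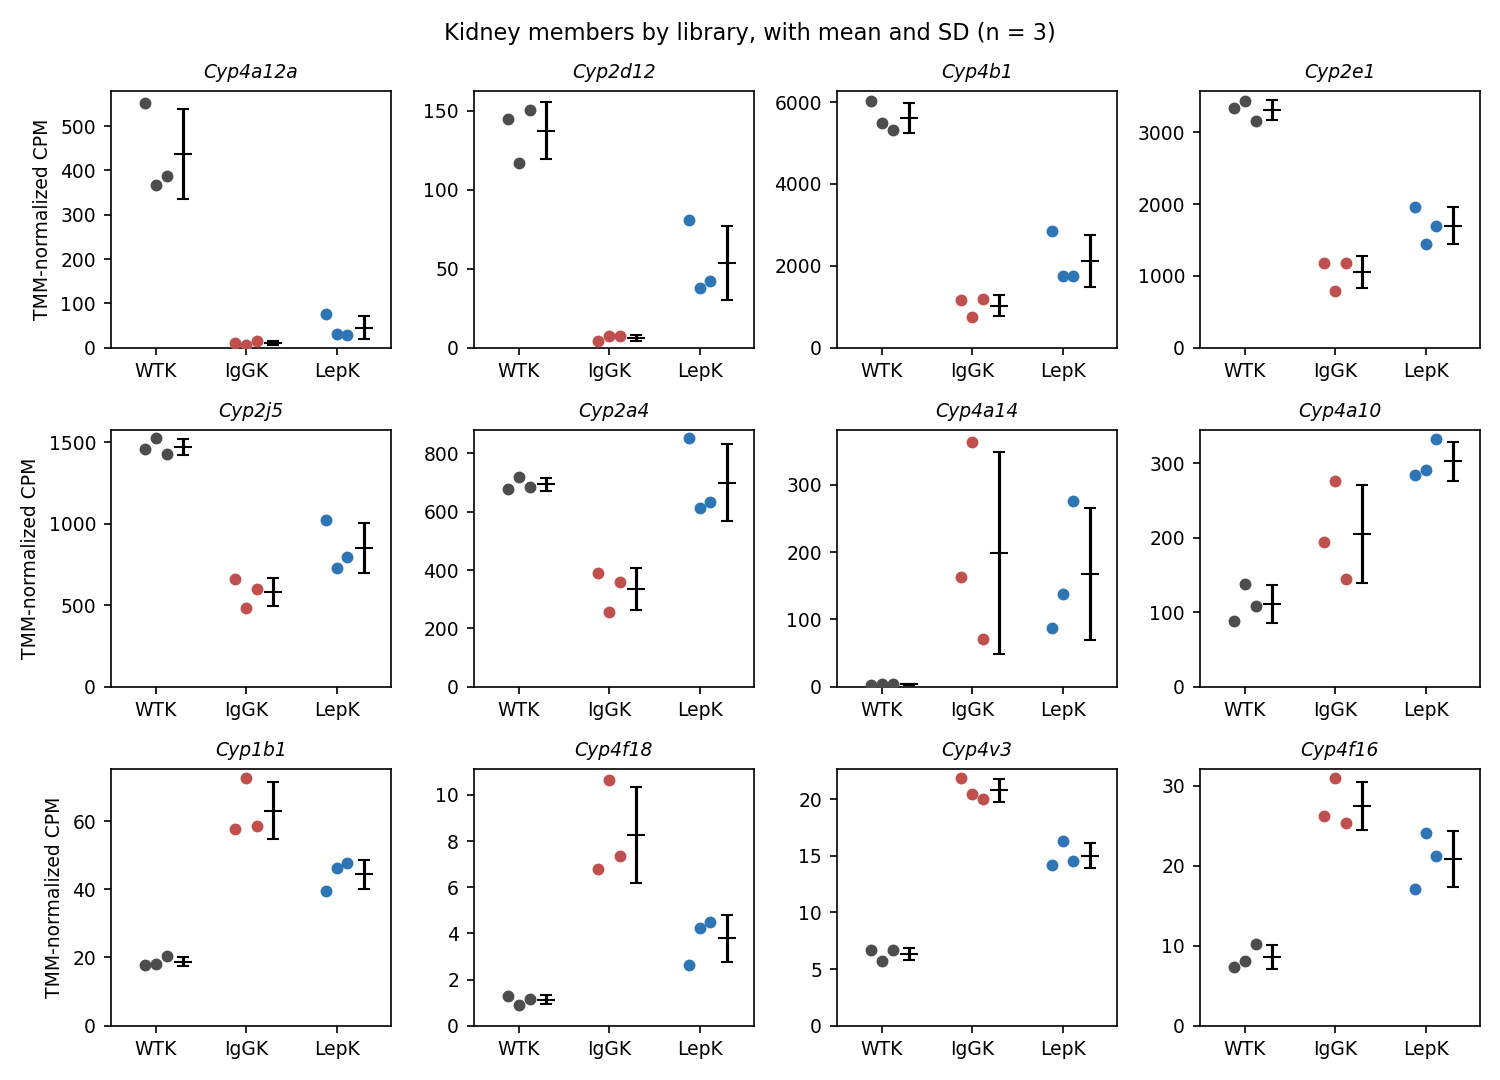
TMM-normalized CPM (vertical axes, linear, each from 0) of 12 kidney members in the 3 WTK, 3 IgGK and 3 LepK libraries. Points are libraries, and the bars give the mean and SD (n = 3). Cyp4a12a to Cyp2a4 are lowest in IgGK, while Cyp4a14, Cyp4a10, Cyp1b1, Cyp4f18, Cyp4v3 and Cyp4f16 are lowest in WTK.

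The second comparison asks how the leptin antibody changed these genes in injured kidney, as LepK against IgGK. Cyp2d12 was 8.41-fold higher in LepK, Cyp4a12a 4.32-fold, Cyp2a4 2.09-fold and Cyp4b1 2.06-fold. Cyp4f18 and Cyp1b1, which were high in IgGK, were lower in LepK. Of 49 members tested, 14 (28.6%) were called higher and 2 (4.08%) lower, where 4.38% of all genes tested were called higher and 5.99% lower. The median log2 fold change was 0.57 over the members tested and -0.01 over all genes tested. Without LepK replicate 2, the library with hepatocyte transcripts, these medians were 0.37 and -0.02. LepK and IgGK libraries did not overlap for 25 of the 49 members, and for 37.4% of all genes tested. This comparison shares the IgGK libraries with the previous one, so a low or high IgGK library enters both with opposite sign, and the values of each comparison are only given side by side.

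Cyp2d12 had 4.19, 7.43 and 7.43 CPM in IgGK and 80.7, 38.0 and 42.5 CPM in LepK (log2 fold change 3.07, SE 0.28, adjusted p = 7.16e-05). Cyp4a12a had 11.2, 5.77 and 14.6 CPM in IgGK and 75.3, 31.4 and 29.2 CPM in LepK (log2 fold change 2.11, SE 0.37, adjusted p = 0.00229). The groups did not overlap for either gene, and LepK replicate 1 was the highest library of both. Cyp4b1 had 1153, 744 and 1191 CPM in IgGK and 2849, 1743 and 1757 CPM in LepK (log2 fold change 1.04, SE 0.20, adjusted p = 0.00327). Cyp2e1 had 1178, 791 and 1181 CPM in IgGK and 1961, 1450.3 and 1688 CPM in LepK (log2 fold change 0.70, SE 0.14, adjusted p = 0.00524). Here too every LepK library was above every IgGK library.

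Cyp2a4 rose from 391, 255 and 360.2 CPM to 852, 614 and 633 CPM (log2 fold change 1.06, SE 0.15, adjusted p = 0.000721). Cyp2a5 rose by 0.99 (SE 0.16), Cyp2d9 by 1.26 (SE 0.13) and Cyp2d26 by 0.69 (SE 0.13). Of the epoxygenases, Cyp2c23 rose by 0.73 (SE 0.08, adjusted p = 0.000163) from 16.9 to 17.3 CPM in IgGK to 27.1 to 30.5 CPM in LepK. Cyp2j5 rose by 0.55 (SE 0.13), Cyp2j11 by 0.65 and Cyp2j9 by 0.50, and the call of Cyp2j5 was lost without IgGK replicate 2 or without LepK replicate 1, that of Cyp2j11 without LepK replicate 1, and that of Cyp2j9 without IgGK replicate 3 or LepK replicate 1. Cyp4a31 and Cyp4a32 complete the 14 at 0.57 each. The call of Cyp4a31 was lost without IgGK replicate 3, and that of Cyp4a32 (adjusted p = 0.0489) without any library other than IgGK replicate 1.

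Cyp4f18 fell from 6.79, 10.7 and 7.37 CPM in IgGK to 2.63, 4.22 and 4.50 CPM in LepK (log2 fold change -1.13, SE 0.25, adjusted p = 0.00834). Cyp1b1 fell from 57.8, 72.6 and 58.5 CPM to 39.5, 46.2 and 47.6 CPM (log2 fold change -0.51, SE 0.10, adjusted p = 0.00471), a call that was lost without IgGK replicate 2 or without LepK replicate 1. All LepK libraries were below all IgGK libraries for both genes. Macrophage markers were lower as well (4 of 5 listed genes called, summed CPM 448 to 549 in IgGK and 234 to 294 in LepK), as were 4 of 5 neutrophil markers (16.9 to 25.5 against 6.78 to 9.34 CPM), and the part of these cells was not tested. Cyp4v3 had a log2 fold change of -0.47 (SE 0.10, adjusted p = 0.00792), under the fold threshold, with no overlap between the groups.

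Both Ppara targets differed from this pattern. Cyp4a14 had 162, 364 and 70.8 CPM in IgGK and 86.6, 138 and 276 CPM in LepK (log2 fold change -0.25, SE 0.48, adjusted p = 0.761), so its spread within each group was wider than the difference. Cyp4a10 had 194, 276 and 145 CPM in IgGK and 284, 291 and 333 CPM in LepK, with no overlap, and a log2 fold change of 0.56 (SE 0.20) whose adjusted p was 0.0663. Without IgGK replicates 1 and 2 it was 1.07 (adjusted p = 0.0207). Cyp2b10 had 1.22, 0.268 and 0.295 CPM in LepK, above the IgGK libraries, with a log2 fold change of 1.70 (SE 0.70, adjusted p = 0.113). Its counts were 37, 8 and 8 in LepK and 8, 2 and 8 in IgGK. LepK replicates 2 and 3 therefore stand above IgGK replicates 1 and 3 by depth scaling alone.

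By subfamily, Cyp2a (1.04), Cyp2c (1.01), Cyp2d (1.11), Cyp2e (0.70), Cyp2j (0.51) and Cyp4b (1.04) were higher in LepK and Cyp1b (-0.50) was lower, 7 of 18, where 10.3% of all features in that table were called. Cyp2c had 17.3, 21.0 and 22.8 CPM in IgGK and 27.8, 66.0 and 29.1 CPM in LepK, and without LepK replicate 2 its log2 fold change was 0.48, under the threshold. Cyp4a was not called, at a log2 fold change of 0.41, which was 1.05 without IgGK replicates 1 and 2. Proximal tubule markers were higher as well, with 8 of 10 called and a median log2 fold change of 0.76 (summed CPM 8492 to 10802 in LepK). Of the 4 androgen-responsive genes, only Kap was called higher (log2 fold change 0.84). The summed CPM of the 4 was 19208 to 27390, of which Kap alone made 18458 to 26049. Gusb went the other way without being called, at 53.8 to 59.1 CPM in IgGK and 42.2 to 45.9 CPM in LepK. Injured tubule markers were lower, 5 of 5, at a summed 230 to 326 CPM, and so was 1 of 4 adipocyte markers, at a summed 151 to 293 CPM. Of the 8 partners, Cyb5a (0.68) and Ephx2 (0.61) were called higher, and Por had a log2 fold change of 0.49 (adjusted p = 0.00553), just under the fold threshold. The 12 regulators had log2 fold changes between -0.42 (Ahr) and 0.45 (Hnf4a, adjusted p = 0.00736), all under the fold threshold.

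Calls changed without IgGK replicates 1 and 2, the libraries with adrenal transcripts. The single IgGK library left was then assumed to vary like the other groups. Cyp4b1, Cyp2e1, Cyp4a12a, Cyp4f18, Cyp1b1, Cyp2j5, Cyp2j11 and Cyp4a32 lost their calls there, and Cyp4a10 gained one. Cyp4b1 was at 0.84 and Cyp2e1 at 0.54 in that fit, Cyp4a12a at 1.65 and Cyp4f18 at -0.95. Each kept its direction. Without LepK replicate 2, 15 members were called higher and 4 lower, and 2260 of all 20242 genes tested were called. With scaling by library size alone, where the median log2 fold change of all genes was -0.19, 9 members were called higher and 4 lower. That scaling called 2593 of all 19593 genes tested.

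**Figure D3:**
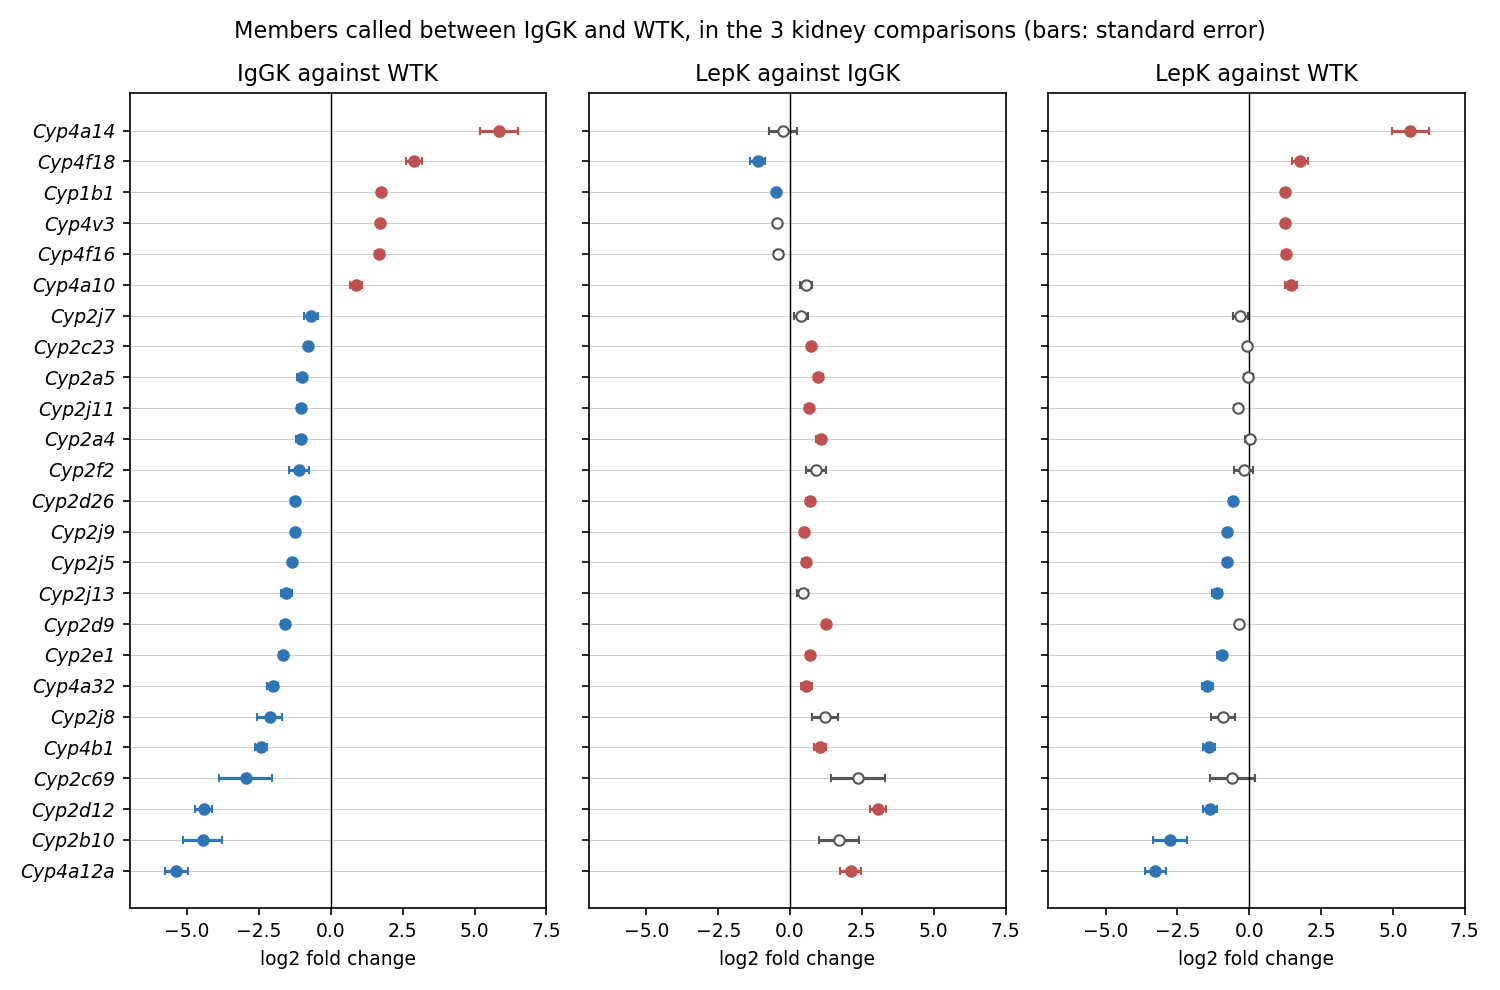
Log2 fold changes (horizontal axes) of the 25 members called between IgGK and WTK, in each of the 3 kidney comparisons. Bars give the standard error, filled points mark called members (red higher, blue lower) and open points members that were not called. Cyp4a14 is at 5.86 against WTK in IgGK and at 5.60 in LepK, and Cyp4a12a at -5.38 and -3.26. The comparisons share libraries, so the panels are not independent.

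The third comparison asks how far kidneys of antibody-treated mice were from uninjured kidneys, as LepK against WTK. Cyp4a12a, Cyp4b1, Cyp2d12, Cyp2e1, Cyp2j5, Cyp2j9 and Cyp2j13 were lower in LepK, and Cyp4a14, Cyp4a10, Cyp1b1, Cyp4f18, Cyp4f16 and Cyp4v3 were higher. Of 49 members tested, 11 (22.4%) were called higher and 10 (20.4%) lower, where 15.2% of all genes tested were called higher and 7.3% lower. The median log2 fold change was -0.03 over the members tested and 0.03 over all genes tested. LepK and WTK libraries did not overlap for 26 of the 49 members, and for 50.2% of all genes tested. With library size alone, 17 members were called higher and 9 lower, and the medians were 0.23 for members tested and 0.29 for all genes. There, 5294 of all 19593 genes tested were called.

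Cyp4a12a remained lowest against WTK, at 75.3, 31.4 and 29.2 CPM against 553, 368 and 388 CPM (log2 fold change -3.26, SE 0.37, adjusted p = 3.56e-05). Cyp4b1, at 2849, 1743 and 1757 CPM, was 0.378 of its WTK level (log2 fold change -1.41, SE 0.20), and Cyp2e1 was 0.514 of it (log2 fold change -0.96, SE 0.14). No LepK library of these genes reached a WTK library. Cyp2b10 had a log2 fold change of -2.76 (SE 0.59), Cyp4a32 of -1.46, Cyp2d12 of -1.35, Cyp2j13 of -1.12, Cyp2j5 of -0.79, Cyp2j9 of -0.76 and Cyp2d26 of -0.57, and the call of Cyp2d26 was lost without LepK replicate 1. For Cyp2a4 the libraries overlapped, at 852, 614 and 633 CPM in LepK and 676, 719 and 685 CPM in WTK (log2 fold change 0.01, SE 0.15, adjusted p = 0.955). Cyp2a5 (-0.03, SE 0.16) and Cyp2c23 (-0.06, SE 0.08) overlapped as well, and a p over the threshold does not show that they were equal.

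Cyp4a14 was at 86.6, 138 and 276 CPM in LepK against 2.16, 4.26 and 3.82 CPM in WTK (log2 fold change 5.60, SE 0.65). Cyp4a10 was 1.44 higher on the log2 scale (SE 0.20), Cyp4f18 1.76, Cyp4f16 1.28, Cyp4v3 1.24 and Cyp1b1 1.24, each without overlap between the groups. Cyp1a1, the best known target of the aryl hydrocarbon receptor, had 0.997, 0.829 and 0.974 CPM in WTK and 1.68, 1.44 and 2.22 CPM in LepK (log2 fold change 0.93, SE 0.32, adjusted p = 0.0391), and this call was lost without any library other than LepK replicate 2. Of the partners, Por (-0.82), Alas1 (-0.71), Ephx2 (-0.67) and Cyb5a (-0.66) were lower and Ephx1 (0.60) was higher. Of the regulators, Ppara (-1.56), Hnf4a (-0.88) and Rxra (-0.57) were among those lower and Nr1i2 (0.83), Ahr (0.71) and Cebpa (0.58) were higher. By subfamily, Cyp1a, Cyp1b, Cyp3a and Cyp4v were called higher and Cyp2b, Cyp2d, Cyp2e, Cyp2j and Cyp4b lower, where 22.5% of all features were called. Proximal tubule markers had a median log2 fold change of -0.95, with 8 of 10 called lower, and all 4 androgen-responsive genes were lower. Macrophage markers were higher, 4 of 5, as was 1 of the 5 neutrophil markers.

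The remaining 4 members called higher against WTK, Cyp3a11, Cyp2c29, Cyp2c50 and Cyp3a13, were called only while LepK replicate 2, the library with hepatocyte transcripts, was in the fit. Cyp3a11, the main Cyp3a enzyme of mouse liver, had 0.0831, 0 and 0 CPM in WTK and 0.0988, 7.01 and 0.628 CPM in LepK. Cyp2c29, also a liver enzyme, had 0, 0.0790 and 0 CPM in WTK and 0, 16.1 and 0.369 CPM in LepK. The high value was in LepK replicate 2 in both cases, and WTK was at or under the 3-count floor, so no fold is given. Cyp3a13 had 0.623, 0.197 and 1.15 CPM in WTK and 1.78, 2.72 and 1.26 CPM in LepK (log2 fold change 1.53, SE 0.54, adjusted p = 0.0414). It also lost its call without WTK replicate 1 or 2 or LepK replicate 1, Cyp3a11 without WTK replicate 3, and Cyp2c29 and Cyp2c50 without any WTK library. Without LepK replicate 2 these 4 genes were not called. The adjusted p was then 0.113 for Cyp3a11, 0.371 for Cyp2c29, 0.435 for Cyp2c50 and 0.157 for Cyp3a13. That fit called 9 members higher and 11 lower, and 3647 of all 20242 genes tested.

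A further look at that library, chosen after its values were seen, took all members with at least 1 CPM in a single kidney library and at least 3 times the value of every other. All 12 such members peaked in LepK replicate 2. They were Cyp2c29, Cyp2d10, Cyp3a11, Cyp1a2, Cyp2c50, Cyp2a12, Cyp2c37, Cyp3a25, Cyp2c54, Cyp2c67, Cyp2c70 and Cyp2d13, most of them known from liver. Their summed CPM was 66.8 in LepK replicate 2, against 0.198 and 2.22 in the other LepK libraries, 0, 5.60 and 6.59 in IgGK and 0.748, 0.197 and 0.469 in WTK. Alb was highest in the same 4 libraries, with 697 CPM in LepK replicate 2, 74.0 in IgGK replicate 2, 27.8 in IgGK replicate 3 and 26.7 in LepK replicate 3, and 2.31 to 11.0 in the rest. Cyp1a2, the liver partner of Cyp1a1, had 6.97 CPM in LepK replicate 2 and at most 0.896 CPM elsewhere. The subfamily calls of Cyp1a and Cyp3a were among those lost without this library, which left 2 higher and 5 lower. The source of the liver transcripts was not tested.

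**Figure D4:**
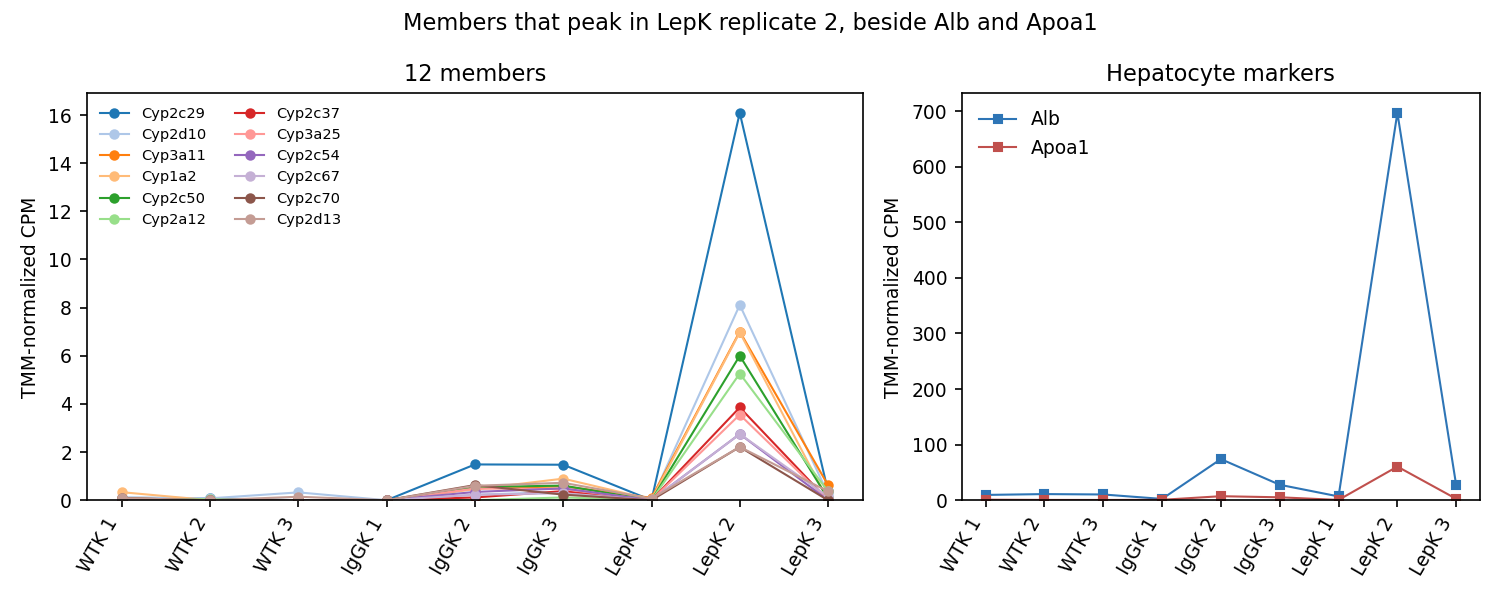
TMM-normalized CPM (vertical axes, linear, different scales) of 12 members (left) and of the hepatocyte markers Alb and Apoa1 (right) in the 9 kidney libraries. Lines join the values of a gene. In LepK replicate 2 Cyp2c29 reaches 16.1 CPM, Alb 697 CPM and Apoa1 60.5 CPM.

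In the lung the comparison was LepL against IgGL, both from mice given bleomycin. Cyp2f2, the club cell enzyme that activates naphthalene, was 3.90-fold higher in LepL, Cyp4f15 3.72-fold, Cyp2e1 2.25-fold, Cyp2s1 1.67-fold and Cyp4v3 1.54-fold. Of 81 members, 26 were tested, and 5 (19.2%) were called higher and 0 lower by edgeR, where 1.78% of all 19617 genes tested were called higher and 2.36% lower. At an unadjusted p under 0.05, 10 members were higher and 2 lower, and 5357 of all genes tested were under it. DESeq2 called 7 members higher and 1 lower, and 2350 of all 19617 genes tested. The median log2 fold change was 0.54 over the members tested and 0.003 over all genes tested. LepL and IgGL libraries did not overlap for 10 of the 26 members, and for 33.3% of all genes tested. The 55 members not tested had at most 0.504 CPM in a lung library.

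Cyp2f2 had 405, 165 and 126 CPM in IgGL and 554, 979 and 1183 CPM in LepL (log2 fold change 1.96, SE 0.44, adjusted p = 0.0447). The lowest LepL library was above the highest IgGL library, and both groups spread widely. Of its 100-base stretches, 4.05% are shared with the overlapping gene Gm15883, and the libraries do not keep the strand. Cyp2e1 had 9.69, 13.8 and 10.2 CPM in IgGL and 33.0, 17.6 and 25.3 CPM in LepL (log2 fold change 1.17, SE 0.24, adjusted p = 0.0391). Cyp2s1, an epithelial enzyme that the aryl hydrocarbon receptor can induce, had 77.0, 56.2 and 63.1 CPM in IgGL and 94.2, 104 and 129.8 CPM in LepL (log2 fold change 0.74, SE 0.15, adjusted p = 0.0395). For these genes too the groups did not overlap.

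Cyp4f15 had 2.08, 1.50 and 0.732 CPM in IgGL and 4.15, 4.12 and 7.86 CPM in LepL (log2 fold change 1.90, SE 0.42, adjusted p = 0.0452). Cyp4v3 had 35.6, 30.2 and 24.3 CPM in IgGL and 43.0, 49.5 and 46.8 CPM in LepL (log2 fold change 0.63, SE 0.15, adjusted p = 0.0494), where 5.77% of its stretches are shared with the overlapping gene Gm45753. Every LepL library was above every IgGL library. The 5 adjusted p values lie close to the threshold, and each of these calls was lost when a library other than IgGL replicate 1 was left out, whichever it was. Without IgGL replicate 1, in which Cyp2f2 was highest of its group, 8 members were called higher and 1 lower. In that fit 3539 of all 20435 genes tested were called, against 812 of 19617 in the main fit.

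Several leading lung members moved in the same direction without passing the test. Cyp2b10 had 148, 104 and 112 CPM in IgGL and 159, 231 and 229.7 CPM in LepL (log2 fold change 0.77, SE 0.18, adjusted p = 0.0506). Cyp2a5 had 36.2, 10.8 and 14.5 CPM in IgGL and 39.4, 52.4 and 59.0 CPM in LepL (log2 fold change 1.29, SE 0.39, adjusted p = 0.0821). The groups did not overlap for either gene. Cyp4b1 had 199.8, 139 and 134 CPM in IgGL and 172, 311 and 331 CPM in LepL (log2 fold change 0.78, SE 0.25, adjusted p = 0.0914), and here LepL replicate 1 was below IgGL replicate 1. In the other direction Cyp1b1 had 11.3, 14.1 and 26.0 CPM in IgGL and 8.88, 7.45 and 8.77 CPM in LepL (log2 fold change -1.03, SE 0.29, adjusted p = 0.0704). Cyp4f18 had 27.0, 22.5 and 40.9 CPM in IgGL and 22.6, 21.5 and 13.98 CPM in LepL (log2 fold change -0.64, SE 0.25, adjusted p = 0.143).

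Markers of lung cell types moved beside these values. Summed CPM of 4 club cell markers was 7631 to 9509 in IgGL and 12145 to 23389 in LepL, of which Scgb3a2 was called (log2 fold change 0.96) and Scgb1a1 was at 1.07 (adjusted p = 0.0504). Scgb1a1 made most of that sum, with 6889 to 8453 CPM in IgGL and 11100 to 21800 CPM in LepL. The groups overlapped for Scgb3a1 (97.7 to 168 against 81.5 to 125 CPM) and Aldh1a1 (409 to 598 against 514 to 789 CPM). Neither was called. The sum of 5 alveolar type 2 markers was 6373 to 11813 against 17101 to 23377 CPM with 3 called higher, and that of 5 ciliated cell markers 164 to 242 against 260.1 to 447 CPM with 1 called higher. Neutrophil markers were lower (4 of 5 called, 149 to 377 against 56.7 to 88.7 CPM), and the 5 macrophage markers summed to 933 to 1215 against 565 to 790 CPM with 1 called lower. Adipocyte markers summed to 33.8 to 80.8 CPM in IgGL and 114 to 145 CPM in LepL, where 1 of 3 tested was called higher. The part of these cell types in the member values was not tested. By subfamily, Cyp2e, Cyp2f, Cyp2s and Cyp4v were called higher, 4 of 18, where 4.14% of all features were called. Of the 8 partners Cyb5a was called (log2 fold change 0.60, adjusted p = 0.0395), and Ephx1 was at 0.84 (adjusted p = 0.0679). Of the regulators, Nfe2l2 was at 0.41 (adjusted p = 0.0969) and Nr1i2 at 1.24 (adjusted p = 0.124).

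**Figure D5:**
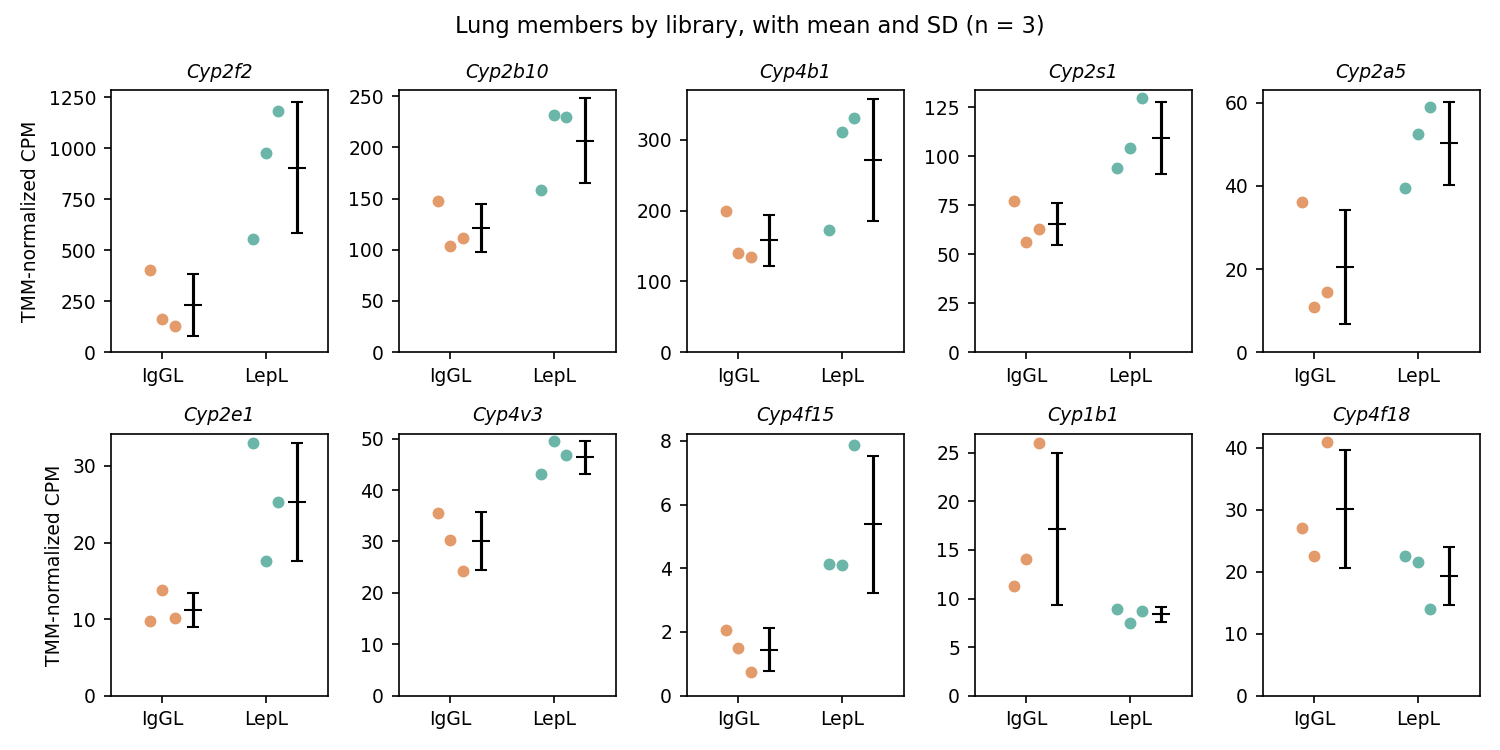
TMM-normalized CPM (vertical axes, linear, each from 0) of 10 lung members in the 3 IgGL and 3 LepL libraries. Points are libraries, and the bars give the mean and SD (n = 3). The 3 LepL libraries lie above the 3 IgGL libraries for Cyp2f2 (554 to 1183 against 126 to 405 CPM), Cyp2b10, Cyp2s1, Cyp2a5, Cyp2e1, Cyp4v3 and Cyp4f15, and below them for Cyp1b1.

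Whether the antibody effect differed between the organs was tested in a fit of the 12 libraries from injured organs, as LepK against IgGK minus LepL against IgGL. Of 51 members tested, Cyp4v3 was called, and 6.66% of all genes tested were. Its log2 fold change was -0.47 in kidney and 0.63 in lung, and the difference was -1.07 (SE 0.18, adjusted p = 0.00984). At an unadjusted p under 0.05, 3 members had a positive and 3 a negative difference, and 5468 of all 21488 genes tested were under it. DESeq2 called 2 and 3 members, and 2498 of all genes tested. Without IgGK replicates 1 and 2 the difference of Cyp4v3 was -1.02 (adjusted p = 0.142). Cyp2e1, called higher in both organs, had a difference of -0.44 (SE 0.32, adjusted p = 0.418), and Cyp4b1 of 0.29 (SE 0.39, adjusted p = 0.690). Organ, agent, day, length of antibody dosing and age range differ together, so this difference cannot be assigned to one of them.

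Cyp2r1, the vitamin D hydroxylase, had 0.649 to 1.86 CPM in WTK, 0.780 to 1.15 CPM in IgGK and 0.724 to 1.26 CPM in LepK, and 0.720 to 1.22 CPM in IgGL against 1.01 to 1.46 CPM in LepL, so that the groups of each organ overlapped. Cyp2u1, a hydroxylase of long-chain fatty acids, had 6.50 to 6.86 CPM in IgGK and 8.38 to 10.4 CPM in LepK (log2 fold change 0.48, SE 0.17, adjusted p = 0.0586). Cyp4x1, an orphan member, had at most 10 counts in a library and was not tested. Cyp1a1 in lung had 3.19, 2.92 and 1.90 CPM in IgGL and 1.37, 5.23 and 4.66 CPM in LepL, which overlap (log2 fold change 0.49, SE 0.46).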

How the data were processed

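RNA from 15 libraries, 3 in each of 5 groups, was sequenced by the authors after poly(A) selection with a kit that does not keep the strand, and groups and replicate numbers follow the GEO titles. A description line that names a data column disagreed with the titles and was not used. The authors deposited raw counts per gene and FPKM, that is fragments per kilobase of gene scaled to library depth, with gene coordinates. Submitters' processing notes name GRCm39, mm39, DESeq and DESeq2, and the aligner and counter are not given in the sources used here. Columns of the authors' own comparisons (group means, fold changes and p-values) were in the tables and were not used. No value column was left without a sample. Total counts were 25913969 to 38924788 per library, where 3 counts make 0.0755 to 0.125 CPM, and such floors cover counting error only.

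Deposited counts were tested with edgeR 4.0.16 (quasi-likelihood, with limma 3.58.1, in R 4.3.3), with TMM scaling and filterByExpr (minimum count 10, minimum total 15). One fit held the 9 kidney libraries, one the 6 lung libraries, and one the 12 libraries of injured organs for the difference between organs. P-values were adjusted by Benjamini-Hochberg over all genes tested, and a gene was called where that p was under 0.05 and its log2 fold change exceeded 0.5 in either direction. Subfamilies were tested on summed counts in the same way. The scripts were tested on simulated data. Alternatives were DESeq2 1.42.0, RLE scaling or library size alone, no filter or a mean of at least 1 CPM, no fold threshold or one of 1, fits of 2 groups, a replicate block and leaving out each library. Leaving out IgGK replicates 1 and 2 together was added after seeing the data.

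The genes named were Cyp4a12a, Cyp2b10, the members with the highest FPKM, members of a listed role, and every member called in a comparison or, with over 10 in a direction, the 10 with the largest change among those with a mean of at least 1 CPM and groups that do not overlap. The members, the partner, regulator and marker lists and the tests were chosen with earlier results of these data known. Some of the listed genes are not reported here. Marker lists covered the proximal tubule, injured tubule, distal nephron, podocytes, androgen-responsive genes, club, ciliated, alveolar type 1 and type 2 cells, endothelium, macrophages, neutrophils, adipocytes, hepatocytes and adrenal cortex. Promoters are those of the RefSeq table on GRCm38.p6. Shares of 100-base stretches that a member's transcripts have in common with other genes were counted on GENCODE vM21 transcripts, in which 80 members were found. Since the libraries do not keep the strand, reads of the 21 members that overlap another gene cannot be told apart from that gene's.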

Additional observations from a re-analysis of the deposited data

Results flagged for a closer look

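The effect of the antibody on Cyp4v3 differed between the organs by a test of the difference itself, LepK against IgGK minus LepL against IgGL, at -1.07 on the log2 scale (SE 0.18, edgeR adjusted p = 0.00984). The 3 LepK libraries (14.2, 16.3 and 14.5 CPM) were below the 3 IgGK libraries (21.9, 20.5 and 20.0 CPM), and the 3 LepL libraries (43.0, 49.5 and 46.8 CPM) were above the 3 IgGL libraries (35.6, 30.2 and 24.3 CPM). No group held enough libraries to be searched for a single library far from the others.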

How the results depend on the processing

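In LepK against IgGK, 16 members were called, with 27 under no filter and 6 at a log2 fold threshold of 1. The 7 subfamilies called became 4 at that threshold. Without IgGK replicates 1 and 2, the calls of members changed as named above. Of the subfamilies, Cyp2a (0.97) and Cyp2d (1.095) then kept their calls and Cyp4a (1.05) gained one, while Cyp1b, Cyp2c, Cyp2e, Cyp2j and Cyp4b lost theirs. The lung gave 5 members and 4 subfamilies, against 2 and 2 with library size alone, 8 and 7 with DESeq2, 10 and 8 with no filter, 3 and 2 at a fold threshold of 1, and 0 and 0 with the replicate block. For the difference between organs, 1 member was called, against 3 with library size alone, 5 with DESeq2, 6 with no filter, 2 with a mean of at least 1 CPM and 0 without IgGK replicates 1 and 2. Leaving out 1 library gave 23 to 25 members in IgGK against WTK, 14 to 19 in LepK against IgGK, 17 to 27 in LepK against WTK, 0 to 9 in lung and 1 to 6 for the difference, and 8 to 9, 6 to 8, 7 to 9 and 0 to 8 subfamilies. The highest lung and difference counts, 9 and 6, came without IgGL replicate 1, where 3539 and 3328 of all genes tested were called. Over all genes in lung, edgeR called 812, and 0 without IgGL replicate 2 or either of LepL replicates 2 and 3, where 3689, 4069 and 3401 genes had an unadjusted p under 0.05. Counts under the other settings were within 1.5 times, none of the results changed sign while called, and the causes were not tested. Deviations of libraries with the same number correlated weakly (r = -0.055 to 0.18 over 12 pairs), and not every library matched its own number best. The highest values, 0.18 and 0.165, were for replicates 1 and 2 of IgGK and LepK, which did. With 3 libraries a group this cannot decide whether the numbers pair the samples, and the main fits used no pairing. With the replicate block, 28 members were called in IgGK against WTK, 16 in LepK against IgGK, 21 in LepK against WTK, 0 in lung and 1 for the difference. With 3 libraries a group, and 4 residual degrees of freedom in lung, a missed call does not show that a member did not change.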

Other observations

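Of the marker lists, 4 were set beside no result. Distal nephron markers summed to 3661 to 3774 CPM in WTK, 2505 to 3013 CPM in IgGK and 3584 to 3989 CPM in LepK, with 1 of 4 called lower in IgGK against WTK and 2 of 4 called higher in LepK against IgGK. Both podocyte markers were within the thresholds in each kidney comparison, at 30.4 to 35.0, 30.7 to 43.1 and 36.1 to 50.3 CPM. Of the 5 endothelial markers, 2 were called lower in IgGK and 1 in LepK, each against WTK, with median log2 fold changes of -0.34 and -0.13, and the median in lung was 0.03. Alveolar type 1 markers summed to 2432 to 3035 CPM in IgGL and 3446 to 3753 CPM in LepL, and the median of the 4 log2 fold changes was 0.39. In kidney, 2 of these 4 genes were called higher in IgGK and 2 in LepK, each against WTK, and 1 lower in LepK against IgGK.

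In adrenal cortex markers, 5 of 5 were called higher in IgGK against WTK and 5 of 5 lower in LepK against IgGK, which follows IgGK replicates 1 and 2. The steroidogenic gene Star had 219.7, 257 and 9.60 CPM in IgGK replicates 1 to 3. Of the hepatocyte markers, 3 of 5 were called higher in LepK against WTK and 1 in LepK against IgGK.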
